A study of Homo sapiens with 4 samples.

Results

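Cytosolic ribosomal protein genes encode the proteins of the 60S and 40S subunits of the ribosome outside mitochondria. Their transcripts were followed in REC-1 and Z138, which are established cell lines of mantle cell lymphoma (MCL), a B-cell malignancy. The members were chosen by symbol, as RPL or RPS followed by a digit, or as RPLP0, RPLP1, RPLP2, RPSA or FAU, without S6 kinases and pseudogenes. A RefSeq gene table held 78 such genes after paralogs were set apart, and 68 of them had a probe set with a single gene symbol, 43 of the 60S and 25 of the 40S subunit. All 68 passed a minimum of brightness that 10823 of 18239 measured genes passed. The other 10 were not analysed here. Among several probe sets of a gene the brightest over all 4 arrays was taken, so brightness chose the probe sets and no difference between groups did.

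The 4 groups hold 1 array each. They are REC-1 cells given CC-292, REC-1 control cells, Z138 cells given CC-292 and Z138 control cells, all from cultures in exponential growth. CC-292 inhibits BTK, Bruton tyrosine kinase, which passes on the signal of the B-cell receptor. The labels give 48 h for every group but the Z138 control, whose label carries no time, and the dose is 1 uM in the treatment protocol but 1 mM in the titles of the treated arrays. No label says whether the cultures of a line were set up together.

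A ribosome translates mRNA with a small subunit that decodes the message and a large subunit that joins the amino acids. Nearly every one of its proteins is present once per ribosome, and cells keep their production in step, since unassembled ribosomal proteins are degraded or, like RPL5 and RPL11, can bind MDM2 and stabilise p53. The mRNAs of most of these genes begin with a cytosine followed by a run of pyrimidines, the terminal oligopyrimidine (TOP) motif. Through this motif the mTOR kinase and the RNA-binding protein LARP1 control how well the mRNAs are translated and how long they last, so that arrays, which measure mRNA, do not show how much protein is made.

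The start sites of the members on which the results turn, and of paralogs beside their parent genes, are shown because this motif lies there. Each line gives 25 bases of RefSeq sequence (GRCh38.p14) on the strand of the gene, from 10 bases before the annotated start, with the uninterrupted run of C and T from a C at the start base in capitals where that run holds at least 5 letters.
RPLP2, chr11:809957-809981, plus strand: tcggcgccttCCTTTTCCTCCCTgt
RPS16, chr19:39435935-39435959, minus strand: ccctagctttCCTTTTCCggttgcg
RPL12, chr9:127451392-127451416, minus strand: cgatttccggCCTCTCggctttcgg
RPL36, chr19:5690285-5690309, plus strand: cggcgccagcCCTTCCgccacggcc
RPL27A, chr11:8682782-8682806, plus strand: gaaggccttcCTTTTTCgtctgggc
RPS26, chr12:56041908-56041932, plus strand: acataacctcgattttcttccgcca
RPL4, chr15:66504841-66504865, minus strand: cgggagtggtaagcacttccttttc
RPS27, chr1:153990752-153990776, plus strand: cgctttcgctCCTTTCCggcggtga
RPS27L, chr15:63157463-63157487, minus strand: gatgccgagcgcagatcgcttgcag
RPL22, chr1:6199581-6199605, minus strand: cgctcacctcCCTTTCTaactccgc
RPL22L1, chr3:170870181-170870205, minus strand: ccgtagcttcCTCTCTgctctcgcg
RPL26, chr17:8383179-8383203, minus strand: gcgtgtagttCTCTTCCCTTTTgcg
RPL26L1, chr5:172958719-172958743, plus strand: tccaggggtcggcgaacgaaacgcg
RPS4X, chrX:72277234-72277258, minus strand: ctccagccccaatttctacgcgcac
RPS4Y1, chrY:2841592-2841616, plus strand: agaacagattCTCTTCCgtcgcaga

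Among the 58 members with an entry in the RefSeq promoter table, 43 (74.1%) had such a run at the annotated start, against 5.14% of the 27305 genes in the table. RPLP2 had a run of 13 letters and RPS16 one of 8, whereas the annotated start base of RPS26 and of RPL4 was no C. The letters TTCCGG, which can overlap the run, were found on either strand in the 300 bases around the start of 56.9% of the members and of 20.1% of all genes. The letters TATAAA were found on either strand in 6.9% of the members and 14% of all genes. Of the 8 paralogs in the table, RPL22L1 and RPS4Y1 had the run, while the starts of RPS27L and RPL26L1 shown above had none. A match describes the letters at an annotated start and does not show that the mRNA begins there in these cells.

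Values are log2 signals, on which 1 stands for 2-fold, and differences are CC-292 minus control or REC-1 minus Z138. With 1 array a group no test exists within a line, and the spread between the probe sets of a gene is the only error at hand. It holds no difference between cultures. Where members had several probe sets above the minimum, their pooled SD for the CC-292 difference was 0.18 in REC-1 and 0.16 in Z138. Of the 68 members, 64 averaged at least 12 over the 4 arrays, near the upper end of the array's range of 2.18 to 14.26. The median over members was 13.28 in REC-1 with CC-292, 13.25 in the REC-1 control, 13.35 in Z138 with CC-292 and 13.30 in the Z138 control. The other 4 were RPL7 (11.25 to 11.84), RPL35A (9.06 to 9.71), RPL36 (9.07 to 9.74) and RPL27A, a 60S protein whose only probe set had 6.18 to 6.20 in REC-1 and 4.50 to 4.80 in Z138, where it lay about the minimum of 4.63. The names of 36 of the 68 chosen probe sets end in x and of 22 in s, which on these arrays mark probes that can pick up related transcripts. The many pseudogenes and close copies of these genes may therefore add to the signals.

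Of 7 B-cell and MCL markers on the array, 6 reached the minimum on every array, with values up to 12.03. Of 8 markers of T cells, myeloid cells, NK cells, red cells, fibroblasts and epithelium, 2 to 3 reached it, none above 5.18. BTK had 0.17 as its CC-292 difference in REC-1 and -0.11 in Z138.

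In REC-1 cells the ribosomal protein genes differed little between CC-292 and control, and most of them lay slightly higher with CC-292. Their median difference was 0.05, against -0.05 over all genes and -0.06 over the genes above the 90th percentile of brightness. Of the 68 members, 50 lay above 0, where 42.1% of all genes did, and the values ran from -0.26 to 0.31. On the brightest probe sets none differed 2-fold (background 1.6%) and 1 member, RPL7, differed at least 1.2-fold (background 37.6%). Dimmer probe sets passed 1.2-fold in both directions, such as those of RPL9 (0.65), RPL13 (0.50), RPL37 (0.30), RPS14 (-0.48) and RPL37A (-0.43). The SD over members was 0.10, against 0.35 over all genes and 0.24 over those above the 90th percentile of brightness. Over the 87 other genes that, like most members, averaged at least 12, it was 0.14. Whether signals near the top of the range are compressed was not tested. In RNA from whole cultures, fewer cells with a transcript and less of it in each cell cannot be told apart. For 8 members the difference was larger than the members' pooled SD between probe sets (0.18). The share of all genes past 0.18 was not counted, but 37.6% already passed the larger cutoff of 1.2-fold (log2 0.26).

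**Figure D1:**
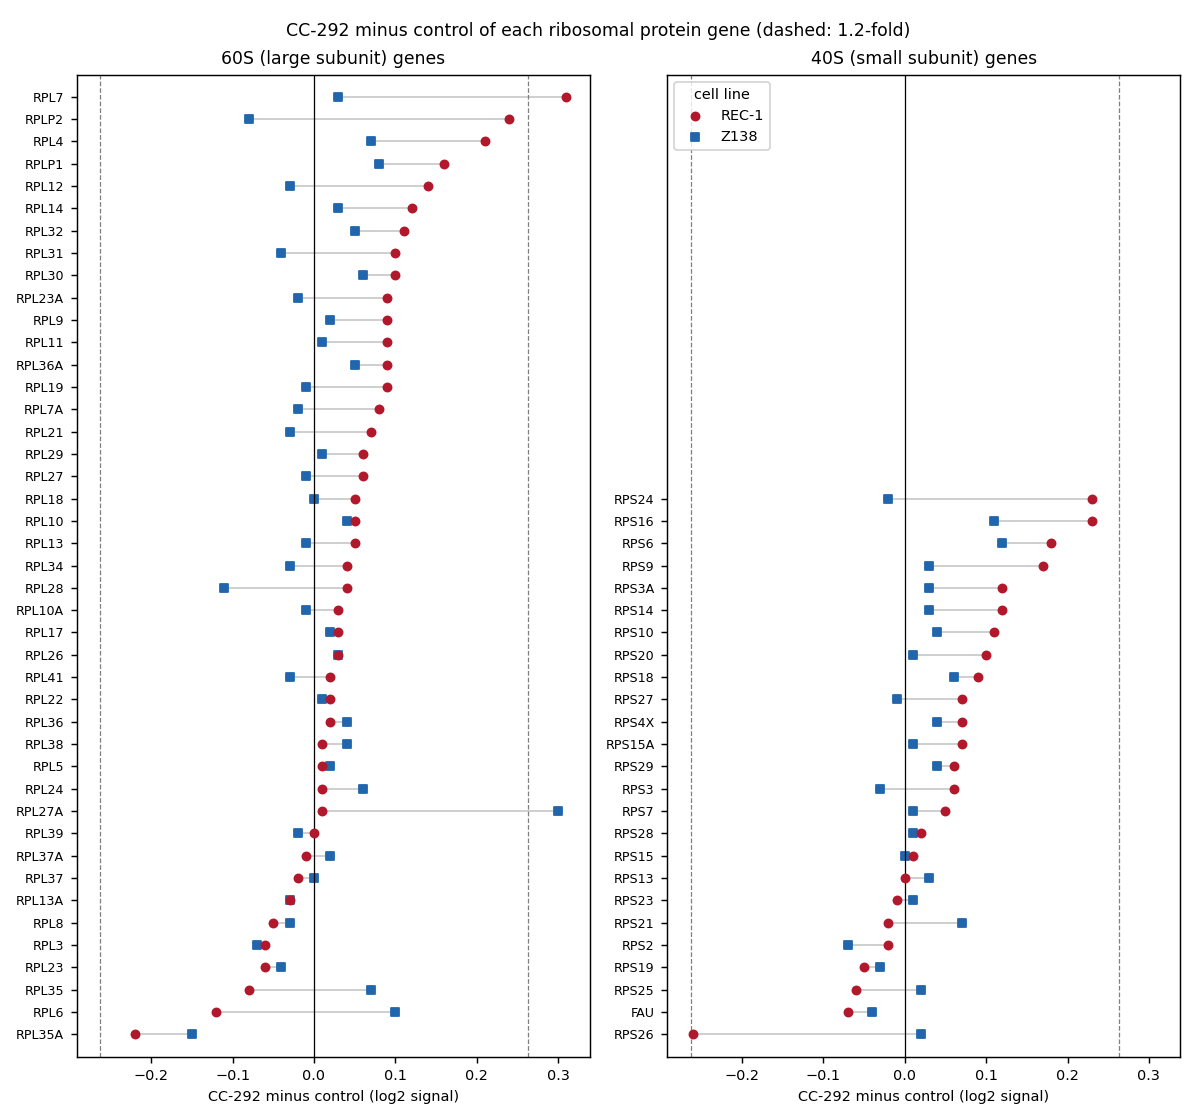
CC-292 minus control difference (log2) of the 68 ribosomal protein genes in REC-1 (circles) and Z138 cells (squares), 60S genes on the left and 40S genes on the right, each joined by a line and ordered by the REC-1 value. The REC-1 values run from -0.26 (RPS26) to 0.31 (RPL7) and the Z138 values from -0.15 (RPL35A) to 0.30 (RPL27A), and most points of both lines lie inside the dashed lines of a 1.2-fold difference.

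The stalk of the large subunit, which recruits the elongation factors, held some of the higher values. RPLP2, a stalk protein, had 12.82 in REC-1 with CC-292 and 12.58 in the REC-1 control, a difference of 0.24. A second probe set also lay higher, but had only 4.91 with CC-292 and 4.79 in the control, near the brightness minimum. RPLP1, the partner of RPLP2, had 13.09 with CC-292 and 12.94 in the control. RPL12, at the base of the stalk, had 13.30 with CC-292 and 13.16 in the control, while a second probe set, nearly as bright, differed by 0.03. On their brightest probe sets all 3 measured stalk genes thus lay higher in the treated REC-1 culture, by 0.14 to 0.24, though each by less than 1.2-fold.

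Other large-subunit members stood at both ends of the range. RPL7, the highest of the 68, had 11.84 in REC-1 with CC-292 and 11.53 in the control on its only probe set, a fold of 1.24. RPL4, which lines the exit tunnel for the growing chain, had 12.38 with CC-292 and 12.18 in the control. A second probe set of RPL4, nearly as bright, differed by 0.05. The lowest of the 60S members was RPL35A, with 9.06 in REC-1 with CC-292 and 9.28 in the control, and next to it came RPL6 (-0.12) and RPL35 (-0.08). Their other probe sets above the minimum went the other way, at 0.24 for RPL35A, 0.02 for RPL6 and 0.21 for RPL35. RPL5 and RPL11, which join the 5S RNA in a particle of their own, differed by 0.01 and 0.09.

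Of the small-subunit members, RPS24 had 13.65 in REC-1 with CC-292 and 13.42 in the control, and RPS16 had 13.53 with CC-292 and 13.30 in the control. Both differed by 0.23, though dimmer probe sets above the minimum gave 0.09 for RPS24 and -0.07 for RPS16. RPS6, the substrate of the S6 kinases, had 13.26 with CC-292 and 13.08 in the control. RPS26, which lies where the mRNA leaves the subunit and contacts it, was the lowest of all 68, with 12.68 in REC-1 with CC-292 and 12.94 in the control. Its 2 probe sets both lay lower, with a mean of -0.25 and an SD of 0.02. The 3 proteins at the mRNA entry, RPS2, RPS3 and FAU, lay between -0.07 and 0.06. The median was 0.06 over the 25 members of the small subunit and 0.04 over the 43 of the large one. It was 0.05 both over the 43 members with a pyrimidine run at the start and over the 15 without one.

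Other groups of members by role were mostly near 0. The 5 proteins around the tunnel exit, where the new chain meets chaperones and the signal recognition particle, had a median of 0.09 in REC-1, and RPL31 (0.10), RPL19 (0.09) and RPL23A (0.09) lay above RPL26 (0.03) and RPL35. Of 4 proteins that join late in subunit assembly, RPL10, RPL24 and RPS10 had 0.05, 0.01 and 0.11, and RPS26 had -0.26. Of the genes mutated in Diamond-Blackfan anaemia, a failure of red cell formation, 9 of 10 listed were measured. They ran from -0.26 (RPS26) through RPS19 (-0.05) to RPS24 (0.23), with a median of 0.03.

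In Z138 cells the members lay closer still to 0. Their median CC-292 difference was 0.01, as over all genes, and the SD over members was 0.06, against 0.27 over all genes and 0.07 over the 87 other genes that averaged at least 12. Of the 68, 41 lay above 0, where 51.9% of all genes did. On the brightest probe sets none differed 2-fold (background 0.564%) and 1, RPL27A, differed at least 1.2-fold (background 24.5%). That gene had 4.80 in Z138 with CC-292 and 4.50 in the Z138 control, and the control value is below the brightness minimum. Without it the highest members were RPS6 (0.12), RPS16 (0.11) and RPL6 (0.10), followed by RPLP1 (0.08). At the other end stood RPL35A, with 9.56 in Z138 with CC-292 and 9.71 in the control, and then RPL28 (-0.11), RPLP2 (-0.08), RPL3 (-0.07) and RPS2 (-0.07). RPL3 and RPL28 are large-subunit proteins, RPL3 near the peptidyl transferase centre. Of the 68 members, 1 differed by more than the members' pooled SD between probe sets (0.16). The share of all genes past 0.16 was not counted, but 24.5% already passed the larger cutoff of 1.2-fold. The 3 stalk genes ran from -0.08 to 0.08 in Z138, the 5 tunnel exit genes from -0.04 to 0.07 and the Diamond-Blackfan genes from -0.15 to 0.04. RPS26 had 12.37 in Z138 with CC-292 and 12.36 in the control, and RPL7 had 11.28 with CC-292 and 11.25 in the control. On their brightest probe sets RPS26 and RPL7, the lowest and highest in REC-1, were thus near 0 in Z138. Of other members near the ends of the REC-1 range, RPL35A (-0.15) and RPS16 (0.11) lay the same way in Z138. RPL6 (0.10) and RPLP2 (-0.08) lay the other way. The second, dimmer probe set of RPS26 gave 0.37 in Z138.

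**Figure D2:**
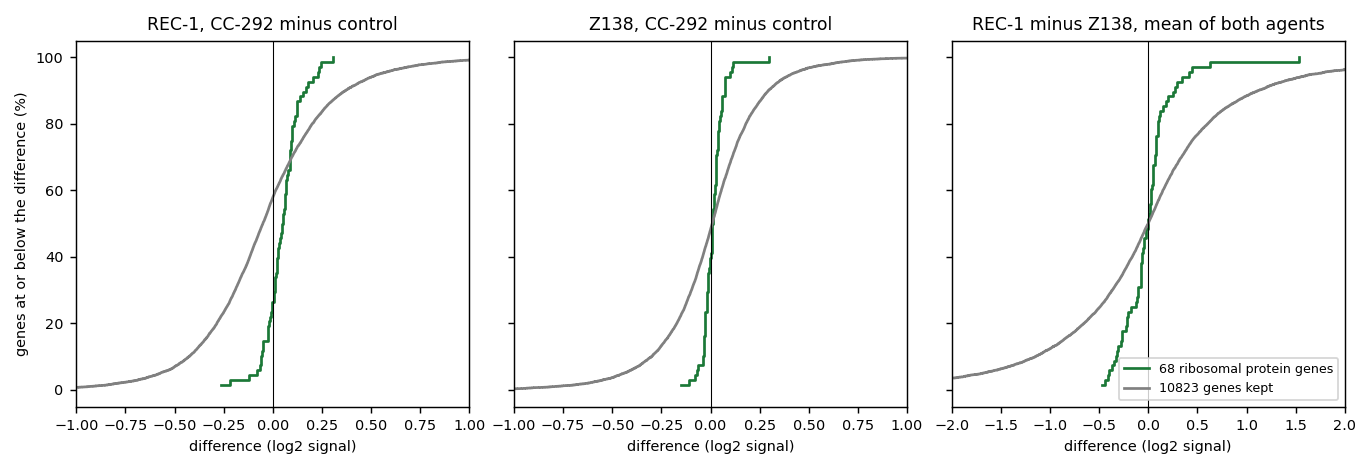
Cumulative share (%) of genes by log2 difference, for the ribosomal protein genes (68) and all genes kept (10823), in the comparisons of CC-292 with control in REC-1, CC-292 with control in Z138, and REC-1 with Z138 averaged over agents. The members' curves rise more steeply than those of all genes, with SDs of 0.10 against 0.35 in REC-1, 0.06 against 0.27 in Z138 and 0.29 against 1.18 between the lines.

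Between the lines, the responses of the members differed little. The REC-1 difference minus the Z138 difference had a median of 0.04, against -0.06 over all genes, and 49 of 68 lay above 0 (43.1% of all genes). At least 1.2-fold apart on their brightest probe sets were 4 members (background 48%). RPLP2 (0.32) and RPL7 (0.28) lay higher with CC-292 in REC-1 relative to Z138, while RPL27A (-0.29) and RPS26 (-0.28) lay lower. For RPLP2 the probe sets disagreed, and the second brightest, which lay near the brightness minimum, gave -0.16. RPS24 (0.25), RPL12 (0.17) and RPL28 (0.15) came next among the higher ones, and RPL6 (-0.22), RPL35 (-0.15) and RPS21 (-0.10) among the lower. The signs in the lines were opposite for 25 members, where they were for 53% of all genes, both above 0 for 33 and both below 0 for 10. Across the 68 genes the differences of the lines had a Pearson r of 0.20 and a Spearman rho of 0.22, and r was 0.28 over the 67 without RPL27A. These correlations run over genes measured on the same 4 arrays.

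Averaged over both lines, no member changed with CC-292 by limma at an adjusted p below 0.05, nor did any of the 10823 genes (background 0%). The lines are the only repeats of the treatment here. At an unadjusted p below 0.05 limma held 0 members and 472 genes. When the prior variance was allowed to follow brightness, the smallest unadjusted limma p of a member was 0.0131, and 0 genes passed the adjusted threshold. The highest averages were RPS16 (0.17), RPL7 (0.17), RPL27A (0.16), RPS6 (0.15) and RPL4 (0.14), and the lowest RPL35A (-0.18), RPS26 (-0.12), RPL3 (-0.06), FAU (-0.05) and RPL23 (-0.05), each with a limma SE of 0.16 to 0.17. Dimmer probe sets above the minimum gave averages of 0.0 for RPL35A and 0.07 for RPS26. In this fit without the brightness trend, the smallest limma p of a member was 0.285 before adjustment and 1 after it. Of the 68 averages, 51 lay above 0, where 45% of all genes did.

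Between the lines the SD was 1.18 over all genes but 0.29 over the ribosomal protein genes, averaged over the CC-292 and control arrays. It was 0.38 over the 87 other genes that averaged at least 12. Here too, compression of signals near the top of the range was not tested. The REC-1 control minus the Z138 control had a median of -0.04 over members and 0.02 over all genes, and 41 members lay below 0 (48.9% of all genes). On the brightest probe sets a 2-fold difference was seen for 1 member, RPL27A (background 24.3%), and 17 differed at least 1.2-fold (background 70.1%). Of these 17, 6 were higher in REC-1 (background 36.2%) and 11 lower (background 34%). Dimmer probe sets above the minimum passed 2-fold both ways, such as those of RPS23 (3.25), RPL31 (1.96), RPS29 (1.55), RPL4 (-1.14) and RPL10 (-1.01). The members' pooled SD between probe sets was 0.43 for this difference of the controls. The average REC-1 minus Z138 difference had a median of -0.01. The arrays of the lines did not overlap for 50 of the 68 members (background 76.8%), 21 with REC-1 above (background 37.9%) and 29 with REC-1 below (background 38.9%).

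By limma, with the agent as a block, 2 of the 68 members differed between the lines (background 44.7%). Both were higher in REC-1 (background 21.6%) and 0 were lower (background 23.1%). At an unadjusted p below 0.05 limma held 8 members. The share of all genes there was not counted, but is at least the 44.7% called after adjustment. RPL36, a large-subunit protein, had 9.74 in REC-1 with CC-292 and 9.72 in the REC-1 control, against 9.12 in Z138 with CC-292 and 9.07 in the Z138 control. Its difference was 0.63 (limma SE 0.16, adjusted p 0.0222), and all 3 of its probe sets lay higher in REC-1, with an SD of 0.09. RPL27A had 6.20 in REC-1 with CC-292 and 6.18 in the REC-1 control, against the Z138 values of 4.80 and 4.50 given above, a difference of 1.54 (limma SE 0.17, adjusted p 0.00146). Markers of absent cell types reached 5.18 on these arrays, above both Z138 values, so this call is set against a level not above background and its size is uncertain. In both genes the arrays of REC-1 lay above those of Z138. The p-values take the arrays of a line as its repeats and cover these cultures only.

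The count of called members depended on how the variance was modelled. With a prior that follows brightness, limma called 28 members (background 53%), 11 higher (background 25.9%) and 17 lower in REC-1 (background 27.1%), as the SE of RPL12, for example, became 0.07. Tested only among the genes above the 90th percentile of brightness, 12 of 67 were called (background 62%), 4 higher (background 30.8%) and 8 lower (background 31.2%). The shares of members called were 41.2% and 17.9% under these settings and 2.94% in the fit above.

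Apart from RPL27A and RPL36, the largest average differences ran in both directions, up to 0.44 and down to -0.47. The members' pooled SD between probe sets was 0.45 for this difference. RPS26 had 12.68 in REC-1 with CC-292 and 12.94 in the REC-1 control, against 12.37 in Z138 with CC-292 and 12.36 in the Z138 control, an average difference of 0.44 (limma adjusted p 0.0814). RPS25, which lies in the head of the small subunit, had 13.39 in REC-1 with CC-292 and 13.45 in the REC-1 control, against 13.08 in Z138 with CC-292 and 13.07 in the Z138 control. Its average difference was 0.35, and that of RPL7 was 0.42. On the other side RPL35A was at -0.47, RPL4 at -0.44, RPL12 at -0.41, RPL27 at -0.40 and RPL5 at -0.36. A dimmer probe set of RPL35A above the minimum gave 0.10. RPL4 had 12.38 in REC-1 with CC-292 and 12.18 in the REC-1 control, against 12.75 in Z138 with CC-292 and 12.68 in the Z138 control. RPL12 had 13.30 in REC-1 with CC-292 and 13.16 in the REC-1 control, against 13.62 in Z138 with CC-292 and 13.66 in the Z138 control. The arrays of neither gene overlapped between the lines, and for RPL12 limma gave an adjusted p of 0.0882, or 1.34e-06 with the brightness trend. The median was -0.02 over the 60S members and 0.03 over the 40S members.

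**Figure D3:**
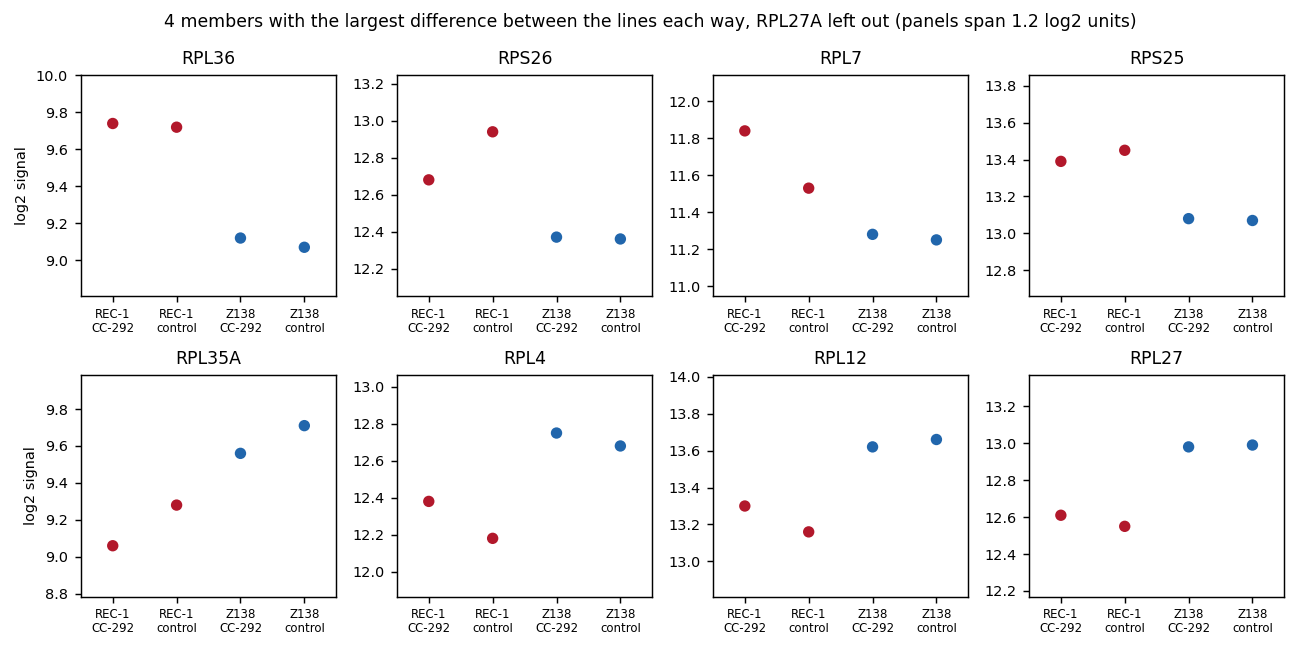
Log2 signal on each of the 4 arrays for RPL36, RPS26, RPL7 and RPS25, which lay highest in REC-1 relative to Z138 apart from RPL27A, and for RPL35A, RPL4, RPL12 and RPL27, which lay lowest. Red points are REC-1 and blue points Z138, each with CC-292 left of its control, and in each panel the arrays of REC-1 and of Z138 do not overlap. Each gene is shown by its brightest probe set.

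Paralogs are copies of ribosomal protein genes that are usually expressed in fewer tissues or at other times than the parent. Of 10 on the array, 7 passed the minimum, and RPL3L, RPL10L and RPS4Y2 did not. RPL10L came nearest, with 4.39 as its highest value. By limma, 2 of the 7, RPS27L and RPL39L, were lower in REC-1 than in Z138 (23.1% of all genes) and none was higher (21.6% of all genes).

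RPS27L, a copy of RPS27 that is induced by p53, had 9.48 in REC-1 with CC-292 and 9.35 in the REC-1 control, against 10.71 in Z138 with CC-292 and 10.51 in the Z138 control. The difference was -1.20 (limma SE 0.16, adjusted p 0.00266), with no overlap between the lines. Its second probe set lay below the brightness minimum and gave 0.01. The parent RPS27 differed by -0.11 between the lines.

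RPL39L, the copy of the tunnel protein RPL39, had 7.72 in REC-1 with CC-292 and 7.74 in the REC-1 control, against 9.00 in Z138 with CC-292 and 8.82 in the Z138 control. This was a difference of -1.18 (limma SE 0.16, adjusted p 0.00303), while RPL39 differed by -0.07. RPL36AL was 0.43 lower in REC-1 (log2, limma adjusted p 0.0849) and its parent RPL36A differed by -0.02.

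**Figure D4:**
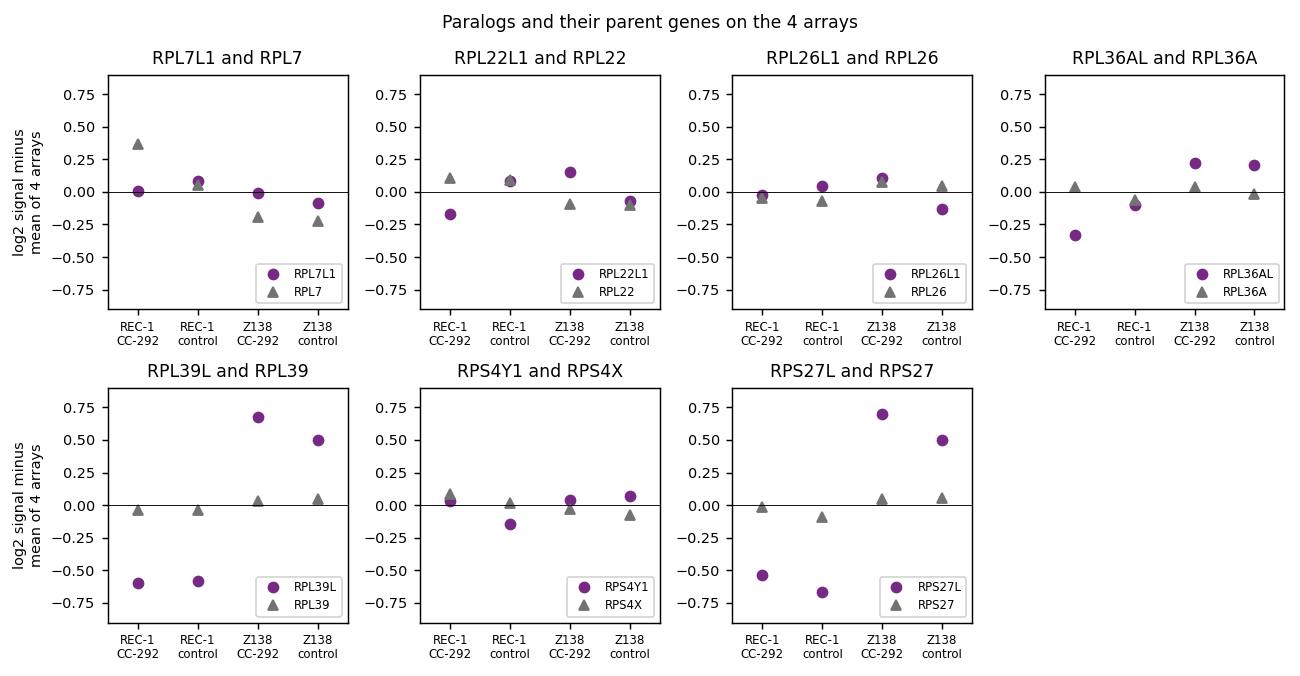
Log2 signal on each of the 4 arrays minus the gene's mean over them, for the 7 paralogs kept (circles) and their parent genes (triangles). RPS27L and RPL39L lie lower on both REC-1 arrays than on both Z138 arrays, while RPS27 and RPL39 differ by -0.11 and -0.07 between the lines.

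With CC-292, 5 of the 7 paralogs lay lower in REC-1, where 57.8% of all genes did, and 6 of the 7 lay higher in Z138, where 51.9% did. RPL22L1 had 9.22 in REC-1 with CC-292 and 9.47 in the control, and 9.54 in Z138 with CC-292 and 9.32 in the control, so that the REC-1 value was lower by 0.25 and the Z138 value higher by 0.22. A second, dimmer probe set below the minimum was at -0.07 in REC-1 and -0.28 in Z138. RPL22, its parent, differed by 0.02 and 0.01. RPL26L1 had differences of -0.07 in REC-1 and 0.24 in Z138, where RPL26 had 0.03 in both. RPL7L1 was at -0.08 in REC-1 and 0.08 in Z138, and RPS4Y1 at 0.19 and -0.03. The median over the 7 paralogs was -0.07 in REC-1 and 0.17 in Z138, and no paralog differed by 1.2-fold in either line. These differences within a line have no test.

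Genes that share the TOP motif or serve these proteins were set beside them. The 18 translation factors with TOP mRNAs had median CC-292 differences of 0.04 in REC-1 and -0.01 in Z138. EEF1G, a subunit of the elongation factor complex that loads tRNA, had 12.94 in REC-1 with CC-292 and 12.65 in the control, the highest of them. The 6 measured snoRNA host genes with TOP transcripts had medians of -0.05 in REC-1 and -0.03 in Z138. Between the lines 4 of these 6, SNHG8, SNHG29, SNHG32 and ZFAS1, were higher in REC-1 by 0.58 to 0.86 (limma adjusted p 0.00903 to 0.0309), where 21.6% of all genes were. Of the 18 translation factors, limma called 1 higher in REC-1, EIF3H (0.60), where 21.6% of all genes were. It called 2 lower, EIF3L (-1.02) and EEF1B2 (-0.64), where 23.1% of all genes were.

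The 8 dedicated chaperones, which carry single ribosomal proteins to the site of assembly, had a median of -0.19 in REC-1 and 0.09 in Z138. HEATR3, which brings RPL5 into the nucleus, had 5.03 in REC-1 with CC-292 and 5.67 in the control. Its treated value lay below 5.18, which markers of absent cell types reached, so the size of this difference is uncertain. PDCD2L, a relative of the RPS2 chaperone PDCD2, had 7.77 in REC-1 with CC-292 and 8.37 in the control. TSR2, the chaperone of RPS26, went the other way, with 8.15 with CC-292 and 7.93 in the control. The 76 mitochondrial ribosomal protein genes, whose products form the separate ribosome of that organelle, had a median of -0.12 in REC-1, with 65 of 76 below 0 (57.8% of all genes), and of 0.02 in Z138, with 36 of 76 below 0 (48.1% of all genes).

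Among 14 genes of the mTOR and LARP1 control of TOP mRNAs, the median was -0.03 in REC-1 and 0.10 in Z138. TSC2, a brake on mTOR, had 5.06 in REC-1 with CC-292 and 5.78 in the control. The treated value lay below 5.18, which markers of absent cell types reached on these arrays, so the size of TSC2 differences is uncertain. LARP1 itself had 10.71 with CC-292 and 10.74 in the control of REC-1. Between the lines, limma called 3 of the 14 lower (23.1% of all genes) and 1 higher in REC-1 (21.6% of all genes). EIF4EBP1, a repressor of cap-dependent translation, had a difference of -2.20 (limma adjusted p 0.000377) and TSC2 one of uncertain size, -1.19 (limma adjusted p 0.0134). The third was DEPTOR, an mTOR inhibitor, with 4.42 in REC-1 with CC-292 and 4.41 in the REC-1 control, against 7.86 in Z138 with CC-292 and 7.17 in the Z138 control. Its REC-1 values lay below the minimum and it was kept through Z138 alone, so no size is given and its call among the 3 carries no weight. MTOR was higher in REC-1 by 0.66 (limma adjusted p 0.02).

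**Figure D5:**
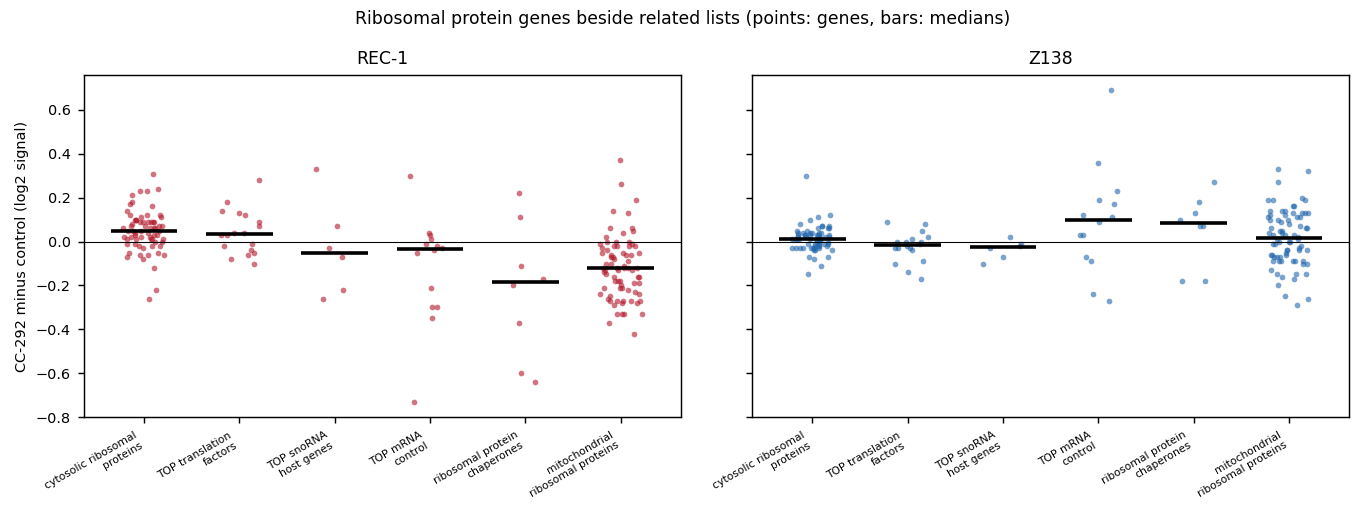
CC-292 minus control differences (log2) in REC-1 and Z138 for the ribosomal protein genes and the related lists, 1 point a gene with the median as a bar. The members' medians are 0.05 and 0.01, those of the mitochondrial ribosomal protein genes -0.12 and 0.02, and those of the dedicated chaperones -0.19 and 0.09.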

How the data were processed

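RNA of 4 cultures, a CC-292 and a control culture of each line, was hybridised to 4 Affymetrix arrays. The authors deposited a log2 signal per probe set. They made it with Affymetrix Expression Console 1.1 and RMA, per the submitters' processing notes. RMA usually makes the distributions of the arrays alike, so a general shift of most genes would be hidden. The sources used here do not give its settings, the arrays it was run on together or a genome build of the probe sets. Arrays have no depth, and the precision is limited by their number.

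Of 49386 probe sets, 45259 had 1 gene symbol, 1327 had several, and only those with 1 were used. A gene was represented by its brightest probe set and kept if its highest value reached the median of all values (log2 4.63). The average effect of CC-292 and the difference between lines were tested in R 4.3.3 by limma 3.58.1, using lmFit and eBayes with line and agent as terms (residual degrees of freedom 1, prior 4.5), over all 10823 genes, with Benjamini-Hochberg adjustment. Python 3.11.15, pandas 2.3.3, numpy 2.4.6 and matplotlib 3.10.9 did the rest. limma was tested on simulated data.

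The members and all gene lists were chosen with earlier results of these data known. Named were the 5 highest and 5 lowest members of each comparison, the paralogs and members grouped by role, and other genes only as list members, which were picked after their values were seen. Alternatives were no filter, the 70th and 90th percentile of brightness, median centring, quantile normalization, cyclic loess, the mean of probe sets, the probe set of median difference, the second brightest probe set, probe sets whose names mark unique probes, each subunit alone, and limma with an intensity trend or without the block. RPL27A was left out of a correlation after seeing the data.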

Additional observations from a re-analysis of the deposited data

Results flagged for a closer look

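Results given in the text are listed here where the CC-292 difference had opposite signs in the lines and, for single genes, was at least 0.1 in both, or, for medians of lists, at least 0.1 in one. None of these differences between lines was tested, since each group is 1 array. RPL22L1 was at -0.25 in REC-1 and 0.22 in Z138, RPL6 at -0.12 and 0.10, TSC2 at -0.73 and 0.19 and EIF3L at 0.18 and -0.10, and the 7 paralogs had medians of -0.07 and 0.17. A second probe set of RPL6, about as bright, gave 0.02 in REC-1 and 0.08 in Z138. TSC2 had 5.06 in REC-1 with CC-292, below the 5.18 that markers of absent cell types reached. The 3 stalk genes had medians of 0.16 in REC-1 and -0.03 in Z138, and RPS26 and RPS28, which line the mRNA exit, had -0.12 and 0.01. The mitochondrial ribosomal proteins had -0.12 in REC-1 and 0.02 in Z138, the dedicated chaperones -0.19 and 0.09, and the genes of TOP mRNA control -0.03 and 0.10. The 6 B-cell and MCL markers kept had 0.10 and -0.06, and the 4 kept markers of other cell types 0.08 and -0.23. BTK, the target of CC-292, was at 0.17 in REC-1 and -0.11 in Z138. Signs are opposite for 53% of all genes.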

How the results depend on the processing

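The median REC-1 difference of the members stayed above 0 under every alternative run, from 0.03 (quantile normalization) to 0.09 (cyclic loess). No paired analysis was possible because the labels give no replicate numbers, although line and agent enter the limma fit as blocks. With 1 array a group no replicate could be left out. The cause of the changes below was not tested, except that fewer genes or other probe sets enter some settings by construction. At 1.2-fold in place of 2-fold, 1 member differed in REC-1, 1 in Z138, 4 between the responses and 17 between the controls. The percentage of members below 0 was 26.5 in REC-1, and became 14.7 with cyclic loess and 40.6 with unique probes. For the difference of the responses it was 27.9, and became 8.8 with cyclic loess and 56.2 with unique probes. For the average effect it was 25, and became 38.2 with quantile normalization, 16.2 with cyclic loess and 40.6 with unique probes. Small medians turned: the difference of the responses to -0.03 and that of the controls to 0.01 with unique probes, and the line average to 0.01 with quantile normalization, 0.04 with cyclic loess and 0.03 over 40S members alone. The controls differed 2-fold for 1 member, for 0 at the 70th and 90th percentiles, 2 with averaged probe sets and 3 with unique probes. The 2 members called between the lines became 6 at the 70th percentile, 12 at the 90th, 12 with the mean of probe sets, 4 with the second brightest probe set, 5 with unique probes, 28 with the intensity trend and 5 without the block. Among single genes, RPL22L1 turned to 0.21 for the difference of the responses and RPS27L to 0.01 between the lines, both with the second brightest and with unique probes, where that probe set lay below the brightness minimum. RPLP2 turned to -0.16 for the difference of the responses with the second brightest probe set, which lay near the brightness minimum. Of the values that answer a comparison, 22 moved and 5 turned, and 173 kept their direction and stayed within the tolerance, which was the pooled SD between probe sets of all genes for medians and a factor of 1.5 for counts and percentages. Within it the median difference of the responses, 0.04, ranged from 0.01 (probe set of median difference) to 0.10 (cyclic loess).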
